A study of Mus musculus with 9 samples.

Results

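The mouse genes of the major histocompatibility complex (MHC) and the genes that load and control them were read from whole-liver RNA-seq of healthy mice, of mice with oncogene-induced hepatocellular carcinoma (HCC), and of HCC mice that received the microRNA miR-22. Members were all rows of the count table whose symbol began with H2-, except H2-Ke6, an enzyme gene that only shares the prefix, together with B2m, Tap1, Tap2, Tapbp, Cd74, Ciita and Nlrc5. This gave 51 of the 55401 genes listed. H2-K1 and H2-D1 encode the classical class I chains (class Ia), 30 members belong to the nonclassical class Ib by symbol, 13 to class II with Cd74, 4 are class I accessory genes and 2 are transactivators. All 51 were found in the GENCODE vM39 annotation of GRCm39, the genome build named for these files, where 47 lay within chr17:34134873-37794472, a stretch of 3.66 Mb from Tapbp to H2-M2.

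Class I molecules display peptides from inside the cell to CD8+ T cells. The heavy chain pairs with B2m, and peptides are carried into the endoplasmic reticulum by the Tap1 and Tap2 transporter and fitted with the help of Tapbp (tapasin). Class II molecules are made mainly by dendritic cells, macrophages and B cells, and display peptides from engulfed material to CD4+ T cells. Cd74 is the invariant chain that guards their groove until H2-DM exchanges it for a peptide. Ciita is the master activator of class II genes and Nlrc5 its counterpart for class I. Class Ib molecules are less variable, and several have special roles, such as H2-T23 (Qa-1), which is read by receptors on natural killer cells, and H2-Q10, a secreted class I protein made by the liver.

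Each group held 3 livers of female mice. The healthy livers came from mice without oncogenes or virus. Both HCC groups were produced by hydrodynamic tail-vein injection of activated AKT (HA-myr-AKT) and N-Ras (Nras-v12) plasmids with the Sleeping Beauty transposase, so that oncogenes enter some hepatocytes of an otherwise normal animal. At 1 week after the oncogenes, the mice received 1 dose of AAV8, an adeno-associated virus that homes to the liver, either as a blank vector (here untreated HCC) or carrying miR-22 under a CMV promoter, and livers were taken at 5 weeks after the oncogenes. The labels name a dose of 1 trillion genome copies per kg, and the methods give a higher one. Their protocol also lists a plasmid for N90-β-catenin, although the design describes RAS/AKT tumors. The strain is C57BL/6 in the sample labels, but FVB/N in the protocol, the design and the study's methods. The mice were bought at 6 weeks of age. Healthy livers differed from both HCC groups in the injection and the virus as well as in the tumor, and these cannot be told apart.

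Libraries held 16664659 to 23908392 counts assigned to genes. Levels are given as normalized counts, which are counts divided by a library's effective size (trimmed mean of M values) and brought back to the mean library. Group values are mean ± SD over 3 livers. A gene was called higher or lower at a Benjamini-Hochberg adjusted p under 0.05 in edgeR's quasi-likelihood test together with a fold change over 1.5. Alb, the albumin gene of hepatocytes, checked the tissue label and ranged from 818780 to 1997760 normalized counts over the 9 livers. In bulk tissue, fewer cells of a type and less RNA per cell cannot be told apart. The reference genes carry the C57BL/6 alleles of this highly variable locus, so in FVB/N mice reads of other alleles would have been assigned to them. Such assignment was not tested.

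Of the 51 members, 34 passed the filter on low counts. Of the other 17, 9 had 0 counts in every library and 8 had at most 9 counts in any library. Most of these were class Ib genes of the H2-M group and pseudogenes, with the class II genes H2-Eb2, H2-Pa and H2-Pb. In untreated HCC compared with healthy livers, 16 of the 34 were called higher, or 47.1%, against 22.7% of all 15717 genes tested, and 4 were called lower, or 11.8%, against 18.1% of all genes. By class, both class Ia genes were higher. Of 16 tested class Ib genes, 6 were higher and 4 lower. Of 10 tested class II genes, 6 were higher, as were 1 of 4 accessory genes and 1 of 2 transactivators. The median log2 fold change was 0.55 over the members and 0.01 over all genes. With miR-22 compared with untreated HCC, 1 member was called higher, or 2.94%, against 8.32% of all genes, and 0 lower, against 5.47% of all genes. At an unadjusted p under 0.05 there were 10 in edgeR. Of these, 5 had an adjusted p under 0.05, 3 higher and 2 lower, beside 2140 and 1637 of all 15717 genes. With both thresholds, DESeq2 also gave 1 higher and 0 lower. For 13 of the 34, the 95% interval of the fold change lay wholly inside the 1.5-fold limits. The median log2 fold change was −0.02 over the members and 0.002 over all genes. In miR-22-treated HCC compared with healthy livers, 15 were called higher, or 44.1%, against 16.9% of all genes, and 1 was called lower, or 2.94%, against 7.05%. The last comparison shares its samples with the other 2, so its calls are no separate evidence. Against the same healthy livers, 13 members were called higher in both HCC groups, and no share of all genes was taken for this overlap. These counts depend on the scaling, because the healthy libraries had TMM factors of 0.865 to 0.872 and the untreated ones of 1.12 to 1.22. Scaled by library totals alone, an alternative added after the data were seen, the median of all genes shifted by 0.42 on the log2 scale in untreated HCC against healthy livers, by −0.24 in treated against untreated HCC and by 0.19 in treated HCC against healthy livers. With that scaling, 24 members were called higher and 2 lower in untreated HCC, beside 5986 and 1492 of all genes (3575 and 2842 with TMM). With miR-22 against untreated HCC, 1 was called higher and 3 lower, beside 835 and 2164 of all genes (1308 and 859 with TMM).

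**Figure D1:**
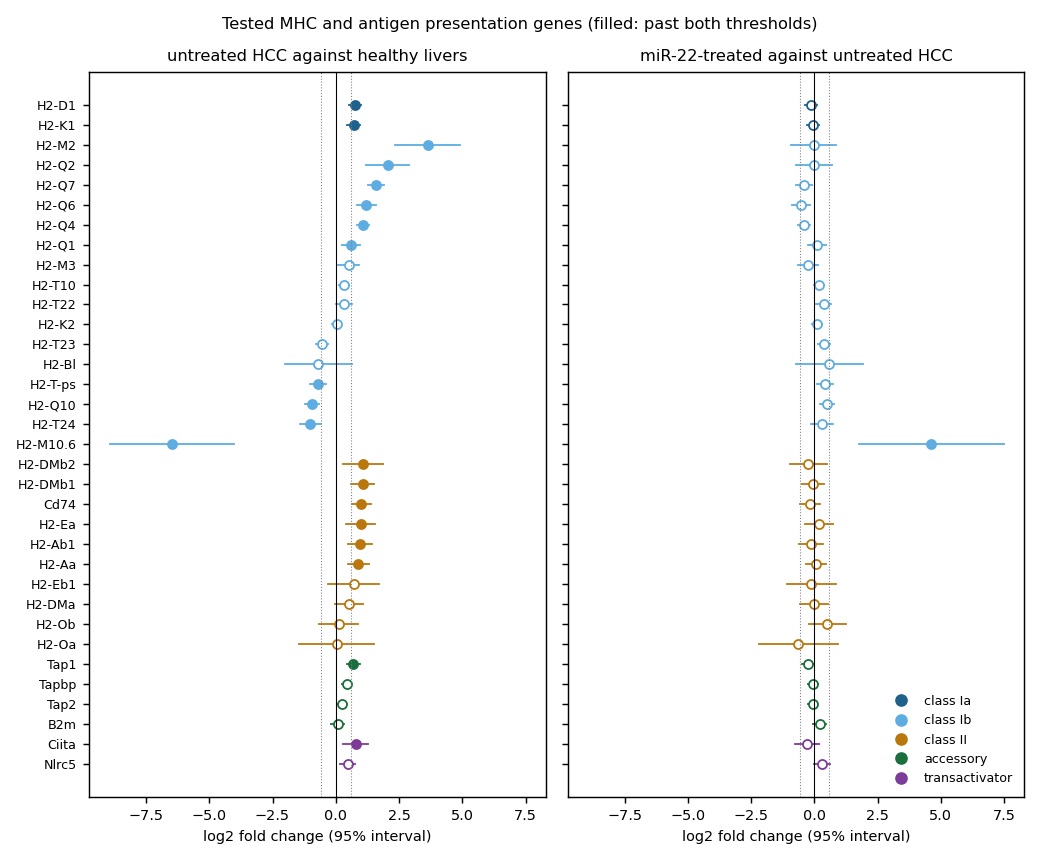
Log2 fold changes of the 34 tested members in untreated HCC against healthy livers (left) and in miR-22-treated against untreated HCC (right), with 95% intervals from edgeR, colored by class. Filled points passed both thresholds and dotted lines mark the 1.5-fold limits; on the left 16 points lie to the right as called genes and 4 to the left, while on the right H2-M10.6 is the 1 filled point.

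The class I genes of chromosome 17 lie in a row of related genes. Of the 51 members, 34 had an upstream sequence in the RefSeq promoter table (GRCm38.p6). In the 250 bases before the annotated start, 4 motifs were searched on both strands. These were GGGGATTCC, the letters of the NF-kB site in the class I enhancer, the core of the interferon-stimulated response element, TGACG, the core of the cyclic AMP response element, and CCAAT, the Y box. GGGGATTCC was present in 4 of the 34 members, or 11.8%, and in 70 of all 32851 promoters, or 0.213%. The 4 were H2-K1, H2-D1, H2-Q6 and H2-Q7, which are related by descent and so do not count as separate instances. The interferon-stimulated response element core was present in 3 members, B2m, H2-T22 and H2-T23, or 8.82%, and in 2.98% of all promoters. TGACG was present in 14 members, or 41.2%, and in 17.8% of all promoters. CCAAT was present in 30 members, or 88.2%, and in 33.8% of all promoters. A match describes letters and is no measured site. The search took exact letters, so a promoter without a match may hold a variant of the site, which was not searched.

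The upstream sequences of the 4 genes with the NF-kB letters are shown with those of H2-Q4, which differs from them at that place, and of H2-Q10, in which none of the 4 motifs was found, because these 6 genes carry the contrast among the class I levels described next. They are given 5′ to 3′ along the gene in lower case, from RefSeq on GRCm38.p6, with every match to 1 of the 4 motifs in capitals.
H2-K1: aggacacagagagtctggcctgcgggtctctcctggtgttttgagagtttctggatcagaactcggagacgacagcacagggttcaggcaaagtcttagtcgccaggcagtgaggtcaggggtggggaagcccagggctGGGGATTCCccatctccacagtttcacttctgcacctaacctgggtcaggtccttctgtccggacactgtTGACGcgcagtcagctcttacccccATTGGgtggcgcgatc
H2-D1: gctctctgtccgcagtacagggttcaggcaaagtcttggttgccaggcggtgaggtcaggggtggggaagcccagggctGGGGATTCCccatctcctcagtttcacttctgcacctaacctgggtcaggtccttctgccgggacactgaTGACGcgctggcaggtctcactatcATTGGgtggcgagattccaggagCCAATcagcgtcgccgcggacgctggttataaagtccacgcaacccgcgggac
H2-Q6: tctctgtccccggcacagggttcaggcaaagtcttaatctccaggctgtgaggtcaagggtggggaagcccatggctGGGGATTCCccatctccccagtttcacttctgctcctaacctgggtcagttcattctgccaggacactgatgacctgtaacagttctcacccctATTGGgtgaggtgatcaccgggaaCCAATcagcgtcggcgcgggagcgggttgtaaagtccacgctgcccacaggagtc
H2-Q7: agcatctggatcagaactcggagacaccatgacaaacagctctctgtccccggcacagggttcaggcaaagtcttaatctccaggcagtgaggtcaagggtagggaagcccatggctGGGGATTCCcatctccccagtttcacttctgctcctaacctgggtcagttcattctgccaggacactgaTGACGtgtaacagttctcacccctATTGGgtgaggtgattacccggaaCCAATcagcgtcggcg
H2-Q4: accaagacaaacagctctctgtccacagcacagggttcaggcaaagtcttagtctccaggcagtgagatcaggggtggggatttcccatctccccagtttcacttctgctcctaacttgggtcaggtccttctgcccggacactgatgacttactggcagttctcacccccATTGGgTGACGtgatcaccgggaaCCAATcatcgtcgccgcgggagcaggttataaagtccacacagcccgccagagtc
H2-Q10: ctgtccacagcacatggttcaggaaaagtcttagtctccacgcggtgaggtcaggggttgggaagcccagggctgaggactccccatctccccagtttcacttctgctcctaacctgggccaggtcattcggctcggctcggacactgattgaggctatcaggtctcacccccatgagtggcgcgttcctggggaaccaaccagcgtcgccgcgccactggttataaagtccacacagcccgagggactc
H2-K1 is read from the minus strand at chr17:34000348-34000597. The others are read from the plus strand, H2-D1 at chr17:35262844-35263093, H2-Q6 at chr17:35424600-35424849, H2-Q7 at chr17:35438905-35439154, H2-Q4 at chr17:35379367-35379616 and H2-Q10 at chr17:35469839-35470088. Aligned end to end, the H2-Q10 sequence was 86.8% identical to that of H2-K1 over 182 aligned bases and 85.9% identical to that of H2-D1 over 241. At the 9 letters GGGGATTCC of H2-K1, H2-D1 and H2-Q6, H2-Q10 read GAGGACTCC, with the substitutions G2A and T6C counted from 1 at the 5′ end of the motif. Against H2-Q7 the alignment gave G2A and T7C. H2-Q4 read GGGGATTTC when aligned to H2-K1, H2-D1 or H2-Q6, with the substitution C8T. Against H2-Q7, its alignment gave a gap before TTTCC and the substitution A5T.

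**Figure D2:**
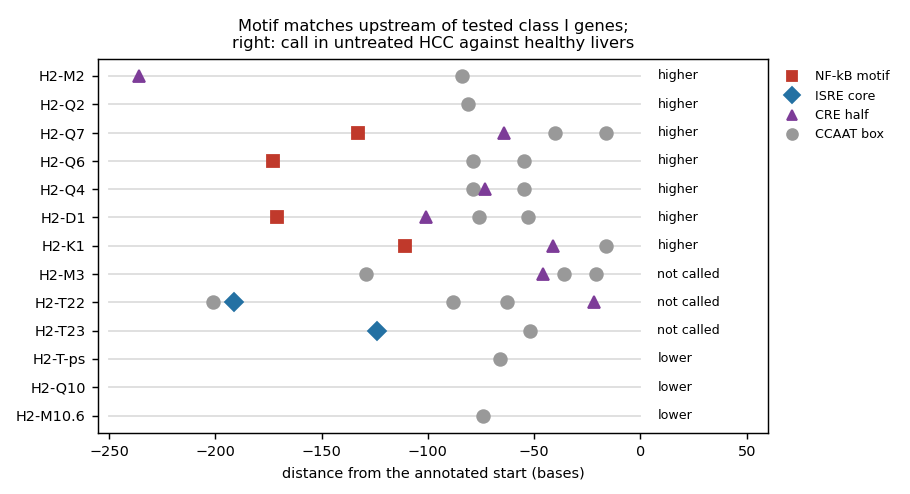
Positions of the first base of each motif match in the 250 bases upstream of the 13 tested class I genes with a promoter in the table, as distance from the annotated start in bases; rows run from the highest to the lowest log2 fold change in untreated HCC against healthy livers, whose call is printed at the right. The 4 rows with the exact NF-kB letters GGGGATTCC are genes called higher, as are the rows of H2-Q4, H2-Q2 and H2-M2 without these exact letters. H2-Q10 has no match to any of the 4 motifs.

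Classical class I genes were higher in HCC. H2-K1 measured 10662, 9629 and 9726 normalized counts in the healthy livers, 16173, 16386 and 16489 in the untreated HCC livers and 13702, 16251 and 17332 in the miR-22-treated livers. H2-D1 measured 13567, 11923 and 11911 in the healthy livers, 21414, 21158 and 21459 in the untreated HCC livers and 18366, 19726 and 20729.6 in the treated livers. Every HCC liver, treated or not, lay above every healthy liver for both genes. Such separation was common in these data. Untreated HCC and healthy livers did not overlap for 26 of the 34 members and for 65.3% of all genes. For treated HCC against healthy livers these were 24 members and 48.8%, and for treated against untreated HCC 13 members and 39.3%. In untreated HCC, H2-K1 was 1.63-fold higher than in healthy livers (log2 fold change 0.71 ± 0.11, SE, adjusted p = 0.000179) and H2-D1 1.71-fold higher (0.78 ± 0.11, adjusted p = 5.57e-05). The untreated livers were close to each other, with a summed H2-K1 and H2-D1 level of 37693 ± 222.0 compared with 22472 ± 1522 in healthy livers. miR-22 did not bring a called change in either. The log2 fold change against untreated HCC was −0.053 for H2-K1 (95% interval −0.30 to 0.19, adjusted p = 0.78) and −0.12 for H2-D1 (−0.36 to 0.11, adjusted p = 0.455), so both intervals lay inside the 1.5-fold limits. Against healthy livers, the treated livers stayed 1.58-fold higher for H2-K1 (adjusted p = 0.000798) and 1.57-fold higher for H2-D1 (adjusted p = 0.000569). The H2-K1 call rests in part on treated liver 4, since without it the log2 fold change was 0.58, just under the fold limit.

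H2-Q10 moved the other way. It measured 25331, 23302 and 24086 normalized counts in the healthy livers, 13194, 10449.9 and 13931 in the untreated HCC livers and 17754, 18614 and 16862 in the treated livers, and the 3 groups did not overlap. H2-Q10 was the most counted of the class I genes in every healthy liver. In untreated HCC it was 1.94-fold lower than in healthy livers (log2 fold change −0.95 ± 0.13, adjusted p = 3.48e-05). The treated livers lay between the other groups, with a log2 fold change of 0.50 against untreated HCC (95% interval 0.23 to 0.77, adjusted p = 0.0124) and of −0.45 against healthy livers (adjusted p = 0.0137), both past the p threshold and under the 1.5-fold limit. Without untreated liver 4, the change with miR-22 was 0.586 and just passed that limit. Scaled by library totals, H2-Q10 lay at −0.54 in untreated HCC against healthy livers (adjusted p = 0.000526), under the limit, and at 0.27 with miR-22 (adjusted p = 0.0558).

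The make-up of class I counts changed in HCC, and the change in their total depended on the scaling. The summed class Ia and Ib level was 51806 ± 2958 normalized counts in healthy livers, 56998 ± 2118 in untreated HCC and 59731 ± 3025 with miR-22, a ratio of 1.10 for untreated HCC to healthy livers. As a share of all counts, class I took 0.248%, 0.222% and 0.226% in healthy livers, 0.344%, 0.343% and 0.337% in untreated HCC and 0.288%, 0.297% and 0.327% with miR-22, a ratio of 1.47 for untreated HCC to healthy livers with no overlap. H2-Q10 made up 45.9%, 46.8% and 47.7% of these counts in the healthy livers, 22.8%, 19.1% and 23.8% in the untreated livers, and 31.6%, 30.4% and 27.3% in the treated livers. This share does not depend on the scaling between libraries, and the 3 groups did not overlap. H2-K1 and H2-D1 together held 43.4% ± 0.508 of the class I counts in healthy livers, 66.2% ± 2.26 in untreated HCC and 59.1% ± 2.33 with miR-22. For every count of H2-K1 and H2-D1, there were 1.08 ± 0.0339 counts of H2-Q10 in healthy livers, 0.332 ± 0.0473 in untreated HCC and 0.505 ± 0.0564 in treated HCC. The 6 hepatocyte markers examined, Alb, Ttr, Apoa1, Cyp2e1, Hnf4a and Serpina1c, moved with H2-Q10. All 6 were called lower in untreated HCC (18.1% of all genes), 3 of the 6 were called higher with miR-22 (8.32% of all genes), and their summed level was 2301320 to 2430360 normalized counts in the healthy group, 941488 to 1176350 without treatment and 1416030 to 1704590 with miR-22. Their part in the H2-Q10 result was not tested.

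**Figure D3:**
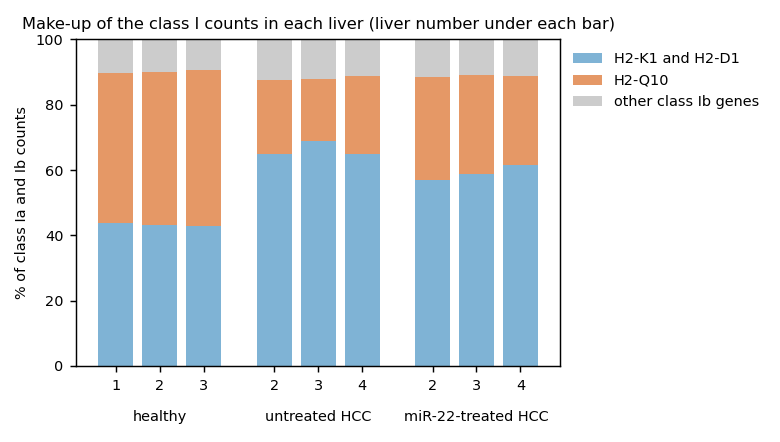
Share of the summed class Ia and Ib counts (percent, stacked to 100%) held by H2-K1 with H2-D1, by H2-Q10 and by the other class Ib genes, 1 bar for each liver. H2-Q10 holds 45.9% to 47.7% of the healthy bars, 19.1% to 23.8% of the untreated bars and 27.3% to 31.6% of the treated bars.

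Among the other H2-Q genes, which encode Qa-2 and related molecules, 5 rose in untreated HCC. H2-Q7 measured 239, 177 and 166 normalized counts in healthy livers, 566, 659 and 521 in untreated HCC and 404, 419 and 497 in treated HCC. H2-Q6 measured 334, 219 and 209, 584, 569 and 594 and 393, 334 and 482 in the same order of groups. H2-Q4 measured 933, 784 and 709 in healthy livers, 1616, 1870.4 and 1632 in untreated HCC and 1252, 1215 and 1364 in treated HCC. All 3 genes were highest in the untreated livers, lower in the treated livers and lowest in the healthy livers, and the groups overlapped in 1 case, where treated liver 3 lay just under healthy liver 1 for H2-Q6. H2-Q7 was 3.00-fold higher in untreated HCC than in healthy livers (adjusted p = 2.48e-06), H2-Q6 2.30-fold (adjusted p = 7.98e-05) and H2-Q4 2.11-fold (adjusted p = 3.75e-06). With miR-22 compared with untreated HCC, the log2 fold change was −0.40 for H2-Q7 (95% interval −0.71 to −0.09, adjusted p = 0.0608). It was −0.53 for H2-Q6 (−0.90 to −0.16, adjusted p = 0.0396) and −0.42 for H2-Q4 (−0.65 to −0.19, adjusted p = 0.0142). None of the 3 passed both thresholds, although H2-Q6 and H2-Q4 passed that on the adjusted p, and H2-Q6 was called lower at −0.68 without treated liver 4. Scaled by library totals, all 3 were called lower with miR-22, at −0.64 for H2-Q7 (adjusted p = 0.0105), −0.76 for H2-Q6 (adjusted p = 0.00822) and −0.66 for H2-Q4 (adjusted p = 0.00233). Compared with healthy livers, the treated livers were still 2.27-fold higher for H2-Q7, 1.59-fold for H2-Q6 and 1.58-fold for H2-Q4, all called. The H2-Q6 call was lost without healthy liver 2, healthy liver 3 or treated liver 4, at adjusted p = 0.0532, at adjusted p = 0.0537 and at a log2 fold change of 0.52. That of H2-Q4 was lost without healthy liver 3, at a log2 fold change of 0.56.

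H2-Q1 and H2-Q2 were also called higher in untreated HCC. H2-Q1 measured 754, 826 and 789.9 normalized counts in healthy livers, 1621, 923 and 1028 in untreated HCC and 1217, 1300.3 and 1299 in treated HCC. Untreated liver 2 stood above the other 2 of its group. H2-Q1 was 1.51-fold higher in untreated HCC (adjusted p = 0.00856), which fell under the fold limit at a log2 fold change of 0.31 without that liver, at 0.54 without healthy liver 1 and at 0.58 without healthy liver 3. In treated HCC it was 1.61-fold higher than in healthy livers (adjusted p = 0.00633). H2-Q2 measured 6.10, 4.89 and 5.33 in healthy livers, 18.2, 27.8 and 22.5 in untreated HCC and 21.1, 22.3 and 24.9 in treated HCC, so it was rare in all livers and rose in both HCC groups. Its fold was 4.13 in untreated (adjusted p = 0.000768) and 4.12 in treated HCC (adjusted p = 0.00189). H2-Q2 passed the filter on low counts through the HCC livers, as its healthy libraries held 5, 4 and 5 counts. Between the HCC groups, the log2 fold changes of H2-Q1 and H2-Q2 were 0.10 and −0.0014 and neither was called.

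The H2-T genes, which include the Qa-1 gene, were not among those called higher in untreated HCC with TMM scaling, and H2-T-ps and H2-T24 were called lower. H2-T23 measured 1037, 770.1 and 822 normalized counts in healthy livers, 601, 579 and 614 in untreated HCC and 760.1, 829 and 733 in treated HCC. Its untreated livers lay below all other livers, at a log2 fold change of −0.55 from healthy livers (adjusted p = 0.001), and the treated livers lay at 0.37 above untreated HCC (adjusted p = 0.0297). Both differences passed the p threshold and missed the fold limit, although the first was called lower without healthy liver 2 (−0.64) or healthy liver 3 (−0.61). H2-T-ps, a pseudogene that shares much sequence with H2-T23, measured 624, 433 and 505 in healthy livers, 361, 307 and 291 in untreated HCC and 428, 469 and 386 in treated HCC. It was 1.63-fold lower in untreated HCC (adjusted p = 0.00102), a call lost at a log2 fold change of −0.57 without healthy liver 1. With miR-22, its log2 fold change was 0.42 (adjusted p = 0.0503). Scaled by library totals, H2-T23 lay at −0.13 (adjusted p = 0.32) and H2-T-ps at −0.28 (adjusted p = 0.101) in untreated HCC against healthy livers, and neither was called.

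H2-T24 measured 149, 158 and 148 normalized counts in healthy livers, 71.8, 60.8 and 92.8 in untreated HCC and 94.3, 84.1 and 99.7 in treated HCC. It was 2.01-fold lower in untreated (adjusted p = 0.000578) and 1.63-fold lower in treated HCC (adjusted p = 0.0113), and it was the 1 member called lower in treated HCC against healthy livers, a call lost with library totals (−0.52, adjusted p = 0.0501). H2-T22 and H2-T10, a pair of near-copies whose products are bound by some gamma delta T cells, were called in untreated HCC only when scaled by library totals, at log2 fold changes of 0.74 (adjusted p = 0.00073) and 0.75 (adjusted p = 2.21e-05). H2-T22 measured 194, 211 and 176 in healthy livers, 278, 199 and 248 in untreated HCC and 301, 296 and 334 in treated HCC. The treated livers were highest, and H2-T22 was called 1.60-fold higher in them than in healthy livers (adjusted p = 0.00276), while treated and untreated HCC differed by 0.36 (95% interval 0.058 to 0.66, adjusted p = 0.0804). H2-T10 measured 613, 559 and 529.8 in healthy livers, 690.1, 662 and 779.8 in untreated HCC and 781, 823 and 831 in treated HCC. Its log2 fold change from healthy livers was 0.33 in untreated and 0.52 in treated HCC, both past the p threshold and under the fold limit. With library totals, the latter was 0.70 and called (adjusted p = 0.000114).

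H2-M2 and H2-M10.6 were near the limit of counting. H2-M2 measured 3.66, 1.22 and 1.07 normalized counts in healthy livers, 31.8, 21.7 and 23.2 in untreated HCC and 36.6, 13.6 and 24.9 in treated HCC. The 3 healthy libraries held 5 counts in all, against 92 in untreated and 71 in treated HCC. Scaled by effective library size, the ratio to healthy livers was 13.06 in untreated HCC (95% exact counting interval 5.40 to 41.2) and 13.1 in treated HCC (5.36 to 41.6), and H2-M2 was called in both (adjusted p = 0.000213 and 0.000621). H2-M2 passed the filter on low counts through the HCC livers, where it was high. H2-M10.6 measured 21.953, 46.5 and 37.3 in healthy livers, 0, 0 and 0.725 in untreated HCC and 16.6, 13.6 and 0 in treated HCC. The untreated libraries held 1 count in all, against 91 in healthy livers, and H2-M10.6 was called lower in untreated HCC (ratio of healthy to untreated 128, exact counting interval 22.4 to 5121, adjusted p = 0.00034). It was also the 1 member called higher with miR-22, with 26 counts in all against that 1 (ratio 33.8, exact counting interval 5.55 to 1386, adjusted p = 0.0237). Treated liver 4 had 0 counts, as had untreated livers 2 and 3, so those 2 groups overlapped. H2-M10.6 passed the filter on low counts through the healthy livers, and in a fit of the HCC groups alone it did not pass and was not tested. The adjusted p was 0.0778 without untreated liver 2, 0.0839 without untreated liver 3, 0.0871 without treated liver 2 and 0.0761 without treated liver 3, so the call did not hold without any 1 of these 4 livers. H2-K2, annotated as a transcribed pseudogene, measured 628, 604 and 548 in healthy livers, 621, 581 and 615 in untreated HCC and 630.3, 661 and 647 in treated HCC, and its 95% interval in untreated HCC against healthy livers, −0.16 to 0.22 on the log2 scale, lay within the fold limits (0.45 with library totals). The remaining tested class Ib genes were H2-M3, which presents formylated peptides, and H2-Bl. H2-M3 ranged from 60.8 to 109 normalized counts over the 9 livers and H2-Bl from 3.20 to 22.003. Neither was called in any comparison with TMM scaling, and H2-M3 was called higher in untreated HCC with library totals (log2 fold change 0.93, adjusted p = 0.00113).

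Several of these genes share sequence, which limits how surely reads were divided among them. When transcripts were cut into words of 31 bases, 37.0% to 54.9% of the words of H2-K1, H2-D1, H2-Q1, H2-Q4, H2-Q6, H2-Q7, H2-T10, H2-T22, H2-T23 and H2-T-ps occurred in no other gene. The share was 72.9% for H2-Q10 and 5.38% for H2-K2. H2-T10 shared 55.0% of its words with H2-T22, and H2-T-ps shared 35.5% with H2-T23. Values of these genes, and of H2-K2 most of all, are therefore less certain singly than as sums.

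Of the partners of class I, Tap1 was called in untreated HCC under either scaling, and Tap2 and Tapbp with library totals alone. B2m measured 23950, 24502 and 25088 normalized counts in healthy livers, 27236, 24416 and 26151 in untreated HCC and 26439.5, 32498 and 31591 in treated HCC. Its log2 fold change in untreated HCC was 0.081 (95% interval −0.18 to 0.34, adjusted p = 0.583), inside the fold limits, and in treated HCC against healthy livers 0.30 (adjusted p = 0.0659). With library totals, the former was 0.50 (adjusted p = 0.000936), also under the fold limit. Tap1 measured 583, 435 and 444 in healthy livers, 768, 834 and 767 in untreated HCC and 665, 679 and 662 in treated HCC. Tap1 was 1.62-fold higher in untreated HCC (adjusted p = 0.000179), the 1 accessory gene called with TMM. In treated HCC it lay at a log2 fold change of −0.24 from untreated HCC (95% interval −0.48 to −0.00021, adjusted p = 0.138) and of 0.46 from healthy livers (adjusted p = 0.00738), the latter under the fold limit but called without healthy liver 1 (0.586, adjusted p = 0.00102) and with library totals (0.64, adjusted p = 0.00143).

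Tap2, the other transporter chain, measured 915, 874 and 943 normalized counts in healthy livers, 991, 1099 and 1160.3 in untreated HCC and 989.8, 989.8 and 1110.2 in treated HCC. Tapbp measured 1665, 1420.4 and 1440.1 in healthy livers, 1925, 2114 and 2034 in untreated HCC and 2001, 1895 and 1992 in treated HCC. For both genes, every untreated HCC liver lay above every healthy liver, at log2 fold changes of 0.25 for Tap2 (adjusted p = 0.0285) and 0.42 for Tapbp (adjusted p = 0.00117), which missed the fold limit. With library totals both passed it, at 0.67 for Tap2 (adjusted p = 7.39e-05) and 0.85 for Tapbp (adjusted p = 1.09e-05). Nlrc5, the class I transactivator, measured 565, 467 and 526 in healthy livers, 666, 894 and 602 in untreated HCC and 959, 803 and 899.8 in treated HCC. Its healthy livers lay below all HCC livers. It was called 1.71-fold higher in treated HCC than in healthy livers (adjusted p = 0.00109), while untreated HCC lay at a log2 fold change of 0.47 (adjusted p = 0.012), under the fold limit. Untreated HCC was also called without untreated liver 4 (0.586, adjusted p = 0.00377) and with library totals (0.90, adjusted p = 0.000382). The difference between the HCC groups was 0.30 (95% interval 0.0019 to 0.60, adjusted p = 0.136) and was not called.

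**Figure D4:**
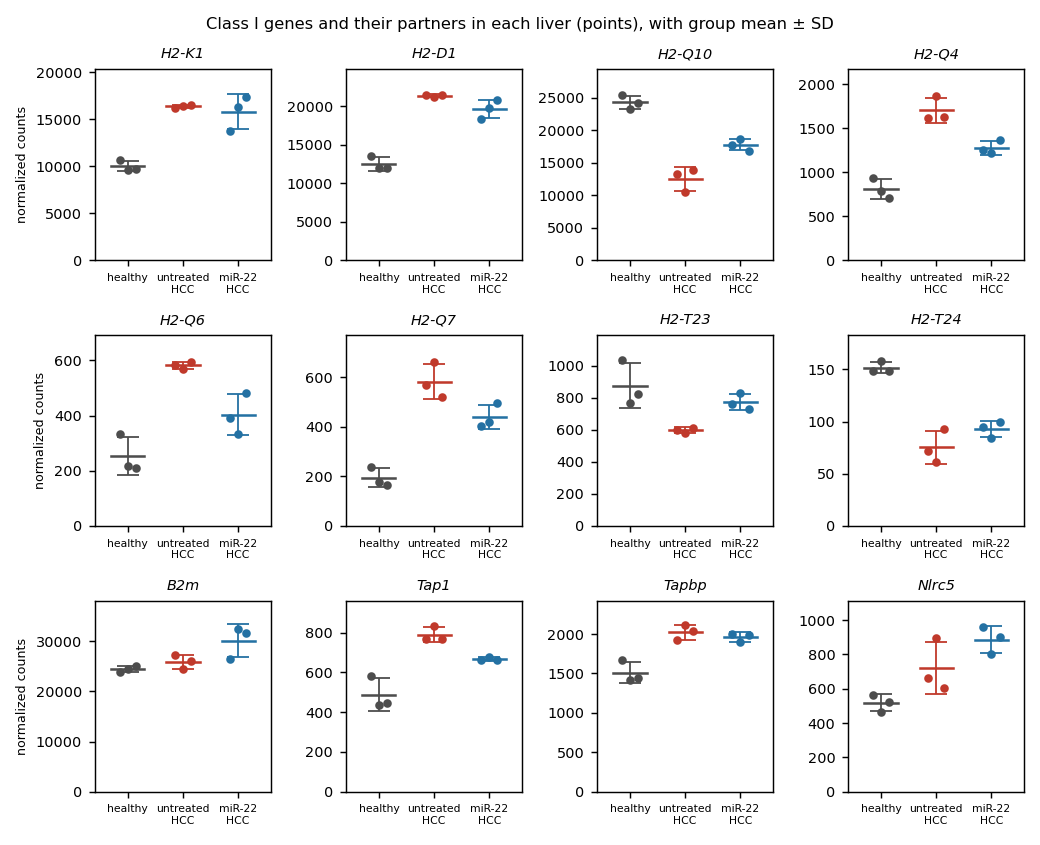
Normalized counts of 12 class I genes and partners in each of the 9 livers (points), with the mean (line) and SD (bars) of the 3 livers of a group; each vertical axis starts at 0. H2-K1, H2-D1, H2-Q4, H2-Q6, H2-Q7 and Tap1 are higher in all untreated HCC livers than in any healthy liver, whereas H2-Q10, H2-T23 and H2-T24 are lower in all of them.

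Compared per length, the order of the main chains differed in untreated HCC. In healthy livers, the level per kilobase of transcript was 22572 ± 524 normalized counts for B2m, 16160 ± 682 for H2-Q10, 6180 ± 353 for H2-K1 and 5889 ± 450.1 for H2-D1. Class II followed, with 1987 ± 674 for Cd74, 1378 ± 501 for H2-Aa and 852 ± 386 for H2-Ab1. In untreated HCC, H2-K1 at 10098 ± 99.6 per kilobase and H2-D1 at 10082 ± 76.8 stood above H2-Q10 at 8350 ± 1223. In treated HCC, H2-Q10 at 11829 ± 584 stood above H2-K1 at 9735 ± 1151 and H2-D1 at 9262 ± 560.4, as in healthy livers. H2-K1 and H2-D1 were neighbors in this order that differed by less than the SD of H2-K1 in all 3 groups.

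Of the 10 tested class II genes, 6 were called higher and 0 lower in untreated HCC compared with healthy livers, against 22.7% and 18.1% of all genes. Cd74 measured 3941, 2127 and 2462 normalized counts in healthy livers, 5612, 5853 and 5785 in untreated HCC and 4926, 4867 and 5546 in treated HCC. H2-Aa, the alpha chain of the class II molecule I-A, measured 2184, 1090.4 and 1388 in healthy livers, 2893, 2906 and 2816 in untreated HCC and 2765, 3219 and 3085 in treated HCC. H2-Ab1, its beta chain, measured 1568, 703 and 828 in healthy livers, 1946, 2070.2 and 2021 in untreated HCC and 1658, 1756 and 2084 in treated HCC. Healthy liver 1 stood above the other 2 healthy livers for all 3 genes, and all HCC livers stood above it. In untreated HCC, Cd74 was 2.02-fold higher (adjusted p = 0.000375), H2-Aa 1.85-fold (adjusted p = 0.00145) and H2-Ab1 1.95-fold (adjusted p = 0.00271). Without healthy liver 1, the log2 fold changes grew from 1.02 to 1.31 for Cd74, from 0.89 to 1.20 for H2-Aa and from 0.96 to 1.38 for H2-Ab1.

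With miR-22 compared with untreated HCC, 0 of the 10 tested class II genes were called in edgeR, against 8.32% of all genes called higher and 5.47% lower, and 0 had an unadjusted p under 0.05. Against untreated HCC, the log2 fold change was −0.17 for Cd74 (95% interval −0.56 to 0.22, adjusted p = 0.541). It was 0.074 for H2-Aa (−0.33 to 0.48, adjusted p = 0.812) and −0.13 for H2-Ab1 (−0.61 to 0.34, adjusted p = 0.704). The intervals of Cd74 and H2-Aa lay inside the fold limits, and that of H2-Ab1 reached just past 1.5-fold lower. Treated HCC remained 1.80-fold above healthy livers for Cd74 (adjusted p = 0.00286), 1.95-fold for H2-Aa (adjusted p = 0.00181) and 1.78-fold for H2-Ab1 (adjusted p = 0.0121). The H2-Ab1 call was lost without healthy liver 2 (adjusted p = 0.0534) or healthy liver 3 (adjusted p = 0.0614). The summed class II level, Cd74 included, was 8076, 4116 and 4945 normalized counts in healthy livers, 10888, 11332 and 11084 in untreated HCC and 9774, 10319 and 11219 in treated HCC. Untreated HCC stood at 1.94 times the healthy mean, and at 2.45 times without healthy liver 1.

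The genes that load class II had fewer counts. H2-DMb1, a chain of the peptide exchange factor H2-DM, measured 51.2, 41.6 and 42.6 normalized counts in healthy livers, 82.7, 96.4 and 105 in untreated HCC and 99.9, 97.7 and 76.6 in treated HCC. It was 2.10-fold higher in untreated (adjusted p = 0.000818) and 2.02-fold higher in treated HCC (adjusted p = 0.00274). H2-DMb2, a close copy of it, measured 43.9, 14.7 and 38.4 in healthy livers, 72.7, 64.3 and 68.8 in untreated HCC and 55.5, 37.1 and 80.3 in treated HCC. Its 2.11-fold rise in untreated HCC (adjusted p = 0.0228) was not called without healthy liver 2 (adjusted p = 0.0827) or untreated liver 2 (adjusted p = 0.0604). H2-DMa, the partner chain, measured 149, 66.0 and 103 in healthy livers, 152, 163 and 137 in untreated HCC and 114, 151 and 180 in treated HCC. The groups of H2-DMa overlapped and it was not called (adjusted p = 0.111 in untreated HCC against healthy livers), whereas without healthy liver 1 its log2 fold change of 0.81 was called (adjusted p = 0.0176), as was that of 0.93 with library totals (adjusted p = 0.00868). In treated HCC against healthy livers, H2-DMa was called without healthy liver 1 (0.79, adjusted p = 0.0338), and H2-DMb2 without treated liver 3 (1.07, adjusted p = 0.0476), with no filter on low counts (0.85, adjusted p = 0.0335) and with library totals (1.04, adjusted p = 0.0494).

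H2-Ea, annotated as a loss-of-function gene in the reference strain, measured 45.1, 22.003 and 33.0 normalized counts in healthy livers, 70.0, 63.4 and 65.9 in untreated HCC and 72.1, 65.6 and 87.7 in treated HCC. All HCC livers lay above the healthy ones, at 1.99-fold in untreated (adjusted p = 0.00683) and 2.25-fold in treated HCC (adjusted p = 0.00462). H2-Eb1, H2-Oa and H2-Ob, the last 2 being the chains of H2-O, an inhibitor of H2-DM, ranged from 0.923 to 62.55 normalized counts over all livers and were not called in any comparison. H2-Eb1 was called higher in untreated HCC with library totals (1.14, adjusted p = 0.0478) and with the replicate number as a block (1.34, adjusted p = 0.0432). Ciita measured 154, 72.1 and 109 in healthy livers, 186, 218 and 174 in untreated HCC and 149, 148 and 169.8 in treated HCC. Its healthy livers had the same order as those of Cd74, with liver 1 highest and liver 2 lowest. Ciita was 1.73-fold higher in untreated HCC than in healthy livers (adjusted p = 0.00915), a call lost without healthy liver 2, when the log2 fold change was 0.55. In treated HCC, the log2 fold change was 0.48 against healthy livers (adjusted p = 0.117) and −0.31 against untreated HCC (95% interval −0.78 to 0.17, adjusted p = 0.344). The former was called without healthy liver 1 (0.76, adjusted p = 0.0178) and with library totals (0.67, adjusted p = 0.0443).

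**Figure D5:**
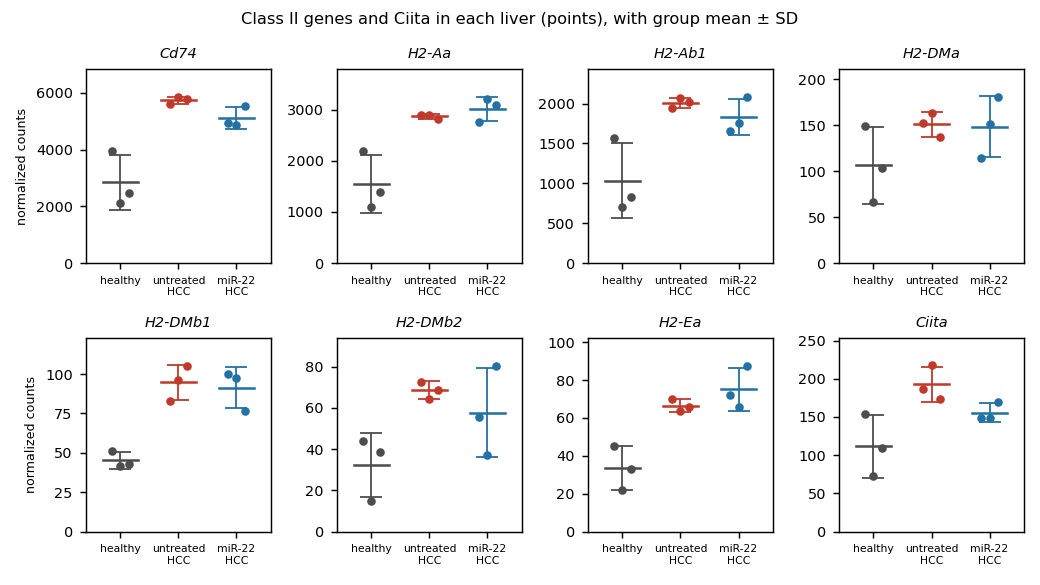
Normalized counts of 7 class II genes and Ciita in each of the 9 livers (points), with the mean (line) and SD (bars) of the 3 livers of a group; each vertical axis starts at 0. For Cd74, H2-Aa, H2-Ab1, H2-DMb1 and H2-Ea both HCC groups lie above every healthy liver, and healthy liver 1 is the highest of the healthy livers for every gene shown.

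Markers of dendritic cells, macrophages and other cells were called in both directions, and their counts stand beside the 22.7% of all genes called higher and 18.1% called lower in untreated HCC. Of 10 dendritic cell markers, 3 were called higher in untreated HCC, Itgax (10.5-fold), Cd209a (4.97-fold) and Flt3 (3.48-fold, with overlapping groups), and 2 lower, Zbtb46 (1.502-fold) and Ccr9 (7.13-fold). Few counts limit some of these folds. The healthy libraries held 4, 2 and 7 counts of Cd209a and 3, 2 and 8 of Flt3, which passed the filter through HCC livers. The untreated HCC libraries held 2, 2 and 6 counts of Ccr9. Their summed level was 338 to 353 normalized counts in the healthy group, 395 to 489.96 without treatment and 512 to 524 with miR-22, and 2 of the 10 were called higher in treated against untreated HCC (8.32% of all genes) and 5 in treated HCC against healthy livers (16.9% of all genes). Of 10 macrophage and Kupffer cell markers, Fcgr1 (2.02-fold) and Cd68 (1.60-fold) were called higher in untreated HCC, and Mrc1 (1.75-fold) and Timd4 (1.66-fold) lower, with sums of 9376 to 10441 in the healthy group, 7505 to 9069 without treatment and 9494 to 10414 with miR-22. Of the 7 tested T and NK cell markers, Cd4 was called higher in untreated HCC and Nkg7 higher with miR-22, with sums of 116 to 152 in the healthy group, 152 to 181 without treatment and 144 to 214 with miR-22. Of 5 endothelial markers, 3 were called lower in untreated HCC and Clec4g was called higher with miR-22. None of the markers in these lists was at 0 in all libraries of any group. The part of these cells in the class II and class I results was not tested.

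Other genes of the pathway were read from lists, and the counts of each list stand beside the same 22.7% and 18.1% of all genes in untreated HCC, and beside 8.32% and 5.47% with miR-22 and 16.9% and 7.05% in treated HCC against healthy livers. Of 10 genes for class I processing and folding, Psmb8, a subunit of the immunoproteasome, was called higher in untreated HCC and Erap1, which trims peptides, lower. Psmb8 measured 666, 569.6 and 656 normalized counts in healthy livers, 1125, 1088 and 1137 in untreated HCC and 1041, 1101 and 1142 in treated HCC, or 1.77-fold higher in untreated HCC (adjusted p = 5.18e-06). Erap1 measured 2572, 2972 and 2654 in healthy livers, 1837, 1658 and 1826 in untreated HCC and 2532, 2765 and 2099 in treated HCC, or 1.54-fold lower in untreated HCC (adjusted p = 0.000355). Psmb8 was the 1 gene of this list called in treated HCC against healthy livers, and 0 of the 10 were called between the HCC groups in edgeR, with 2 at an unadjusted p under 0.05. Of 7 genes for class II processing, 3 were called higher in untreated HCC and 0 lower. These were Ctss, the main protease of the invariant chain (2.11-fold, adjusted p = 1.05e-05), Lgmn (1.69-fold, adjusted p = 1.53e-05) and Ifi30 (1.65-fold, adjusted p = 0.000527). With miR-22, 0 of the 7 were called against untreated HCC, with 2 at an unadjusted p under 0.05, and Ctss, Ifi30 and Marchf1 were called higher against healthy livers.

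Of 10 tested genes of the interferon gamma path, 4 were called higher in untreated HCC and 0 lower, against 22.7% and 18.1% of all genes. The receptor chain Ifngr1 was 1.89-fold higher (adjusted p = 1.64e-05), Ifngr2 2.42-fold (adjusted p = 4.47e-06), Irf8 1.95-fold (adjusted p = 0.000359) and the feedback inhibitor Socs1 2.35-fold (adjusted p = 0.0484). Socs1 had few counts, and its groups overlapped, with untreated liver 4 at 9.42 normalized counts below healthy liver 1 at 10.98. Both receptor chains were also called in treated HCC against healthy livers. Irf2 was called 1.61-fold higher with miR-22 than in untreated HCC (adjusted p = 0.00119), and Irf1 1.55-fold lower in treated HCC than in healthy livers (adjusted p = 0.00621). Ifng itself had too few counts to be tested. Of 7 promoter factors of MHC genes, Nfya, a subunit of the factor that binds the CCAAT box, was the 1 called. It measured 311, 326 and 316 normalized counts in healthy livers, 680.1, 779 and 624 in untreated HCC and 415, 388 and 501 in treated HCC. It was 2.19-fold higher in untreated HCC than in healthy livers (adjusted p = 6.12e-06) and 1.59-fold lower with miR-22 than in untreated HCC (adjusted p = 0.00194).

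Molecules built like class I but encoded elsewhere were also listed. Of 15 listed, 12 were found and 10 tested, of which 2 were called higher and 3 lower in untreated HCC (22.7% and 18.1% of all genes). In untreated HCC, Ulbp1, a ligand of the activating receptor NKG2D, measured 195, 305 and 155 normalized counts, against 8.54, 4.89 and 13.9 in healthy livers and 151, 129 and 213 in treated HCC. Procr measured 31.7, 14.7 and 27.7 in healthy livers, 354, 586 and 191 in untreated HCC and 154, 106 and 212 in treated HCC. Both genes were far higher in HCC, 23.2-fold for Ulbp1 (adjusted p = 9.28e-07) and 15.1-fold for Procr (adjusted p = 8.78e-06). Procr was called 2.37-fold lower with miR-22 than in untreated HCC (adjusted p = 0.023), although those livers overlapped. Ulbp1 (17.6-fold) and Procr (6.38-fold) were also the 2 genes of this list called higher in treated HCC against healthy livers. Azgp1 was 2.65-fold lower in untreated HCC (adjusted p = 7.57e-06), Fcgrt, the neonatal Fc receptor, 2.00-fold (adjusted p = 1.16e-05) and Cd1d1, which presents lipids to NKT cells, 1.86-fold (adjusted p = 2.77e-06). With miR-22 compared with untreated HCC, Azgp1 was called 2.07-fold higher (adjusted p = 0.000766) and Fcgrt 1.54-fold higher (adjusted p = 0.00263). Of 5 tested costimulation and checkpoint ligands, Cd40 (10.2-fold, adjusted p = 1.44e-06) and Icosl (3.06-fold, adjusted p = 0.00119) were called higher and Cd274, which encodes PD-L1, 2.09-fold lower (adjusted p = 0.00646) in untreated HCC. None of the 5 was called between the HCC groups, with 1 at an unadjusted p under 0.05, against 8.32% of all genes called higher and 5.47% lower. In treated HCC against healthy livers, Cd40 (6.70-fold), Icosl (2.46-fold) and Cd86 (1.69-fold) were called higher and Cd274 lower (2.09-fold), against 16.9% and 7.05% of all genes.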

How the data were processed

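RNA was measured in 9 livers, 3 in each group. Per the labels and the study's methods, libraries were non-directional, so that antisense reads cannot be separated, and the authors checked reads with FastQC 0.11.7, quantified them with Salmon (version not given) on GRCm39 and imported gene counts for DESeq2 1.18. The deposited files hold raw counts per gene and a normalized signal, which is those counts divided by size factors. The raw counts were used for every result.

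Counts were tested in R 4.3.3 with edgeR 4.0.16 (filterByExpr, TMM, quasi-likelihood test, all 9 libraries, no covariates). This left 15717 genes, and p-values were adjusted over all of them (Benjamini-Hochberg). Standard errors and 95% intervals come from the same fit. DESeq2 1.42.0 was an alternative. The fit was tested on simulated data. Depth was 16664659 to 23908392 counts per library, and counting intervals cover counting error only. Transcripts were cut into words of 31 bases and promoters aligned with Python 3.11.15 and Biopython 1.88.

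Members and lists were chosen with earlier results of these data known. Members were given liver by liver when they had a mean of at least 100 normalized counts in a group or were called. Of the pathway lists, called genes were named. The 17 members not in the promoter table were not searched for motifs. The list of B cell markers is not reported here.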

Additional observations from a re-analysis of the deposited data

How the results depend on the processing

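Under DESeq2's Wald test, DESeq2 size factors, upper-quartile factors and 2 other filters on low counts, the counts of members called in untreated HCC against healthy livers were 16 higher and 4 lower, as in the fit reported. Counts recovered from the normalized values equaled the deposited counts in 100% of values, so their fit was the same by construction. Leaving out 1 liver gave 14 to 17 higher and 3 to 5 lower, beside 3409 to 3622 and 2653 to 2965 of all genes. Dropping the fold limit gave 21 and 5, beside 4628 and 4210 of all 15717 genes. In miR-22-treated against untreated HCC, members called higher numbered 0 in a fit of the 2 groups alone, in which H2-M10.6 was not tested, 3 with no fold limit and 0 to 2 without 1 liver. Members called lower numbered 2 with no fold limit and 0 to 1 without 1 liver. In treated HCC against healthy livers, members called higher numbered 16 in DESeq2, 18 with no fold limit, 12 without healthy liver 3 and 18 without healthy liver 1, and those called lower numbered 2 with no filter, 2 with no fold limit and 1 to 2 without 1 liver. With no fold limit, all genes called numbered 2140 higher and 1637 lower in treated against untreated HCC. In treated HCC against healthy livers they numbered 3359 and 2373. Some small differences of named members turned in direction. H2-K2 in untreated HCC against healthy livers ranged from −0.036 to 0.062 on the log2 scale without 1 liver. In treated against untreated HCC without 1 liver, H2-K1 ranged from −0.13 to 0.036, H2-M2 from −0.38 to 0.26, H2-Q1 from −0.059 to 0.38, H2-Q2 from −0.14 to 0.16, H2-DMb1 from −0.15 to 0.059 and H2-DMa from −0.19 to 0.14, and H2-Q2 was 0.0036 with at least 10 counts in every library of a group. The cause was not tested. Library totals in place of TMM factors, added after the data were seen, left 2 members lower in untreated HCC, 3 lower in treated against untreated HCC and 19 higher and 0 lower in treated HCC against healthy livers. The last 2 counts stand beside 3408 higher and 593 lower of all genes (2664 and 1108 with TMM). The ratio of summed class I counts became 1.47 in untreated HCC against healthy livers, 0.890 in treated against untreated HCC (1.05 with TMM) and 1.31 in treated HCC against healthy livers, and that of class II 0.798 in treated against untreated HCC. Log2 fold changes in treated against untreated HCC turned to −0.14 for H2-Q1, −0.16 for H2-Aa, −0.048 for H2-Ea, −0.018 for B2m, −0.14 for H2-K2 and −0.043 for H2-T10, and H2-T23 in treated HCC against healthy livers to 0.0044. Genes of the pathway and marker lists were not recomputed under the alternatives.

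Untreated and treated HCC livers that share a number correlated at −0.23 to −0.12 in their deviations from the group means. The mean was 0.076 for livers with other numbers. Deviations within a group sum to 0, so these values are tied to each other and cannot exclude a pairing. Healthy livers were not included. With the replicate number as a block, 16 members were higher and 3 lower in untreated HCC, 1 and 0 in treated against untreated HCC, and 17 and 1 in treated HCC against healthy livers, and H2-Q2 in treated against untreated HCC turned to 0.011. In untreated HCC against healthy livers, the block ended the calls of H2-Q1 (0.569), H2-DMb2 (adjusted p = 0.0563) and H2-T-ps (−0.49) and gave calls for H2-DMa (0.81, adjusted p = 0.0263) and H2-Eb1 (1.34, adjusted p = 0.0432), and in treated HCC against healthy livers it gave calls for Tap1 (0.62, adjusted p = 0.00541) and Ciita (0.81, adjusted p = 0.0336).

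Depth limits H2-Q2, H2-M2, H2-M10.6, H2-Bl, H2-Oa and the 17 members that were not tested, where a difference may not be detectable at these counts.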
